A study of Mus musculus with 4 samples.

Results

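The Hox genes were examined as markers of position along the gut in colon RNA of 4 pools of mice. The members were the genes whose name in the array files is Hox with a cluster letter from a to d and a number, spotted as other than controls. The rule found 63 spots of 45 probes for 39 genes, which are all 39 Hox genes of the RefSeq mouse gene table, out of 39429 probes and 22162 genes kept on the array. There was 1 array for each of 4 groups, in this order below. KO DSS mice lacked Pla2g10 (Pla2g10-/-), which encodes the secreted phospholipase A2 of group X, and drank 1% (w/v) dextran sulfate sodium (DSS), a polymer that injures the colon lining, until day 7. WT DSS mice were wild type at that locus and had the same DSS. KO naive mice lacked Pla2g10 and WT naive mice did not, and neither received DSS. All were C57BL/6 mice, taken to be males of 9 weeks because the labels' sex and age tags appear exchanged, and 3 colons were pooled for each array. How much of the colon each piece covered was not stated in the labels. With 1 array per group, a difference between single groups has no replicate check and no p-value.

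Hox genes encode homeodomain transcription factors that give cells their position along the head-to-tail axis. They lie in 4 clusters, HoxA to HoxD, and genes of like number in different clusters are paralogues. Their order on the chromosome follows the order in which they are expressed along the body, so that low numbers are used from anterior levels and numbers 9 to 13, related to the fly gene Abd-B, at posterior levels. Adult gut keeps part of this code in its epithelium and more of it in its smooth muscle and connective tissue. Hoxa13 and Hoxd13 are needed for the hindgut and its outlet, Hoxd12 and Hoxd13 for the smooth muscle of the internal anal sphincter in the mouse, and Hoxb13 marks the distal colon and rectum. The comparison asked whether the pools held the same stretch of gut, by setting low numbers against high numbers.

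Values below are relative signals, the background-subtracted intensity of a probe over the array's 75th percentile, which thus has the value 1. They compare arrays for 1 probe and not probes with each other. Sums over a list likewise compare arrays for that list. They weigh bright probes most and do not measure amounts of tissue. Between 67.7% and 70.4% of spots per array were well above background. Pla2g10 itself had relative signals of 0.997 in KO DSS and 19.1 in WT DSS, and of 1.70 in KO naive and 15.9 in WT naive, low in both KO pools. Whether its probe lies within the deletion was not stated. A Hox gene was called measured when a probe was well above background on at least 1 array. The median SD of repeat spots within an array was 0.0574 to 0.0635 on the log2 scale, and it covers neither the labelling of a pool nor the spread between mice.

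The promoters of the posterior HoxD genes are printed first because Hoxd11 and Hoxd12 were the members past 2-fold lower with DSS in both genotypes and Hoxd13 is their neighbour. They are RefSeq entries on GRCm38.p6, from 250 bases before to 50 bases after the gene start, and the array's own coordinates below are of another build, mm9. Capitals mark TTTAT or its reverse complement ATAAA, the core shared by sites of CDX factors and of Abd-B-type Hox proteins, and TTTACGA or TCGTAAA, a form preferred by the Hox proteins of number 13.
Hoxd13, chr2:74667975-74668274 (+ strand): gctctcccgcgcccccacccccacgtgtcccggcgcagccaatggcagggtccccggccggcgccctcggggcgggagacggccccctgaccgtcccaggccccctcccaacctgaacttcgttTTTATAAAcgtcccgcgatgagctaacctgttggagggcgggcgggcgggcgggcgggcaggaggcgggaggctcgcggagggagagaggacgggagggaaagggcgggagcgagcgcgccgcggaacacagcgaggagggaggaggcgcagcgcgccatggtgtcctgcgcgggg
Hoxd12, chr2:74674763-74675062 (+ strand): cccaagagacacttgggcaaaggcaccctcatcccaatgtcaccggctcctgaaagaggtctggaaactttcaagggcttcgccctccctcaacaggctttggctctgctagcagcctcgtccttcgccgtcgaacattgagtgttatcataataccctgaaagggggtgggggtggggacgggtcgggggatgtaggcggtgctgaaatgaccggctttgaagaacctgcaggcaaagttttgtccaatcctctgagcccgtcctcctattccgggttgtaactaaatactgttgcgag
Hoxd11, first entry, chr2:74679308-74679607 (+ strand): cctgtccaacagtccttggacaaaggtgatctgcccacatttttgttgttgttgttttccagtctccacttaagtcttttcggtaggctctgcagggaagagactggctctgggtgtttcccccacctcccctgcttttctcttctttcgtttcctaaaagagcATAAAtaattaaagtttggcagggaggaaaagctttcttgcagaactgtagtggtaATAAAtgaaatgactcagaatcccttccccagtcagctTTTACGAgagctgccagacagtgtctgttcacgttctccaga
Hoxd11, second entry, chr2:74682073-74682372 (+ strand): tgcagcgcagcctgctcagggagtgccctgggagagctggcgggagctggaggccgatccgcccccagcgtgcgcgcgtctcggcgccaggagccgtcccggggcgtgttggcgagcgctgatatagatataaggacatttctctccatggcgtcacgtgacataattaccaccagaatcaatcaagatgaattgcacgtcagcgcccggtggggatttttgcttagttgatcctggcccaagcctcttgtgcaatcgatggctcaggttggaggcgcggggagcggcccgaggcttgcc
A promoter entry was given for 22 of the 39 Hox genes, with 24 entries in all. TTTAT was searched on both strands and occurred in 9 of those 24, and in 40% of all 32851 promoters of that table. The longer TTTACGA occurred in 2 of the 24 and in 0.597% of all promoters. The first Hoxd11 entry held 2 matches to TTTAT and 1 to TTTACGA, Hoxd13 held 2 overlapping matches to TTTAT in 1 run, and the Hoxd12 and second Hoxd11 entries held neither. These matches describe the letters of these windows only.

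Of the 39 Hox genes, 29 were well above background on all 4 arrays, 4 on 1 to 3 arrays and 6 on none. Each array measured 31 of them, so the number of Hox genes seen was the same in every pool. All 11 HoxA genes, 9 of 10 HoxB genes and 7 of 9 HoxD genes were measured on all 4 arrays, against 2 of 9 HoxC genes. The 6 genes without signal were Hoxb1, Hoxc5, Hoxc8, Hoxc11, Hoxc13 and Hoxd1. By number, 5 of 8 genes from Hox1 to Hox3, 13 of 15 from Hox4 to Hox8 and 11 of 16 from Hox9 to Hox13 were measured on every array. The colon pools thus held transcripts of both low and high numbers, including all of HoxA. The 4 genes whose detection differed between arrays were Hoxd3, Hoxc9, Hoxc10 and Hoxc12, low signals apart from 1 value of Hoxc10 given below, with the lowest well-measured signal of an array at 0.0113 to 0.0165.

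**Figure D1:**
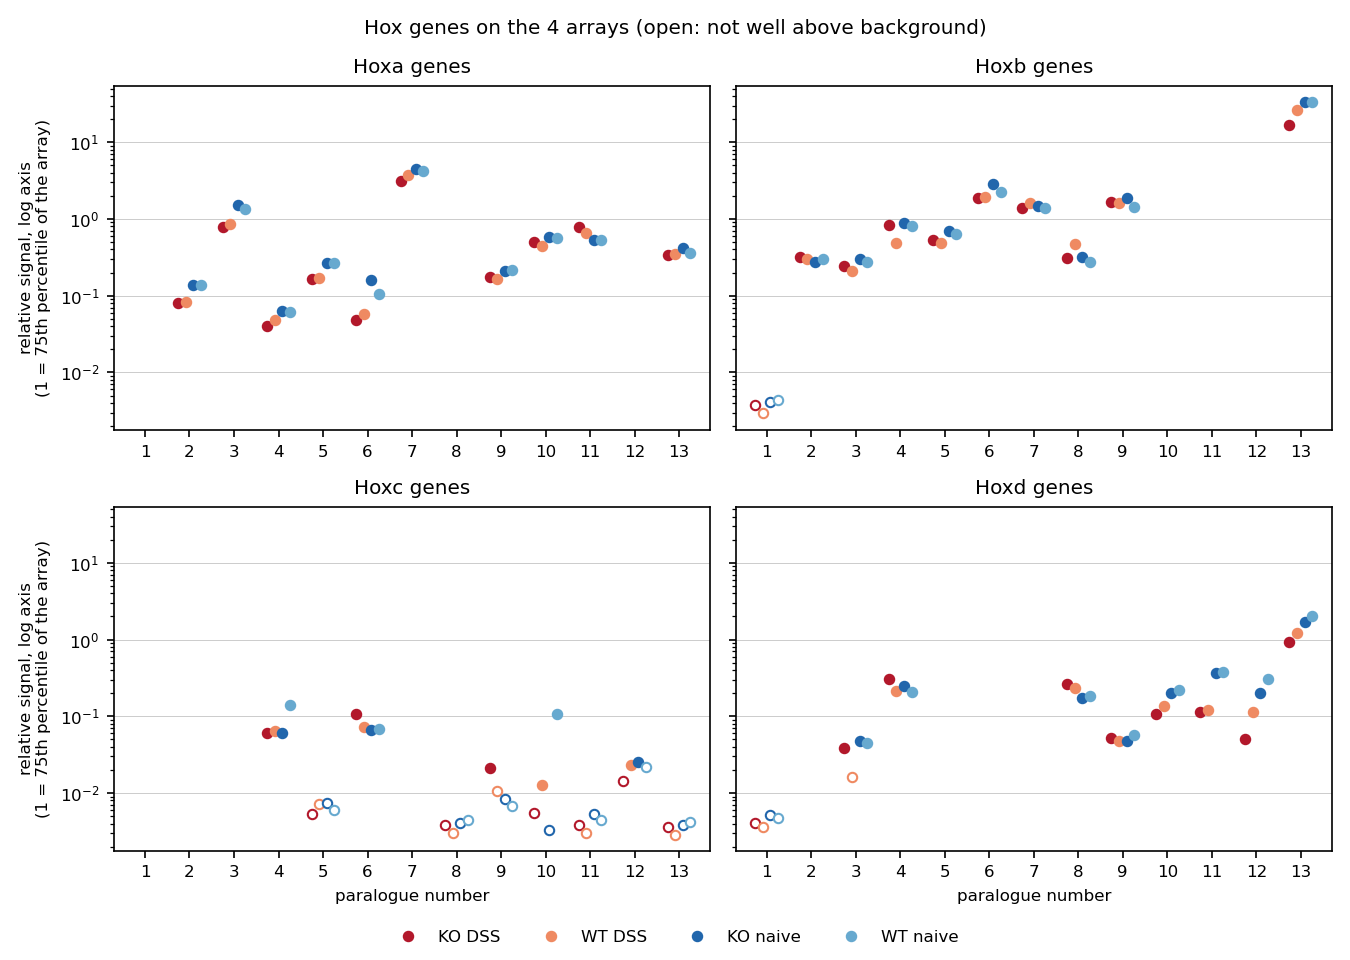
Relative signal of 38 Hox genes on a log axis (1 is the 75th percentile of the array) by paralogue number, 1 panel per cluster, for KO DSS, WT DSS, KO naive and WT naive. Open points were not well above background; 28 of these genes were well above it on all 4 arrays, and HoxC holds most of the open points.

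Most measured Hox genes stood somewhat lower with DSS than without it in both genotypes. Over the 33 measured genes the median log2 ratio of KO DSS over KO naive was -0.30 and that of WT DSS over WT naive was -0.38, against medians of -0.13 in KO and -0.02 in WT over all 22162 genes. The ratio was below 0 for 23 of 33 Hox genes in KO (69.7%) and for 23 of 33 in WT (69.7%), while 61.8% of all genes lay below 0 in KO and 52.1% in WT. Both pairs of arrays are separate, sharing no pool. Past 2-fold lower were 4 Hox genes in KO, Hoxa6, Hoxb13, Hoxd11 and Hoxd12, where 5.22% of all genes passed that fold downwards. In WT 5 were past 2-fold lower, Hoxc4, Hoxc10, Hoxd3, Hoxd11 and Hoxd12, against 5.36% of all genes. No Hox gene was past 2-fold higher in KO, where 5.94% of all genes were, or in WT, where 3.49% were. Hoxd11 and Hoxd12 were the genes past 2-fold in both. Under median scaling, normexp and quantile normalization 3 genes were past 2-fold lower in KO, without Hoxb13. In WT Hoxc4 fell short of 2-fold with median scaling (-0.99) and normexp (-0.80), and Hoxd3 with normexp (-0.53). At the smaller threshold of 1.5-fold, 12 Hox genes were lower in KO (16.4% of all genes) and 12 in WT (13.3%), and 1 was higher in KO (10.5%) and 1 in WT (7.99%). The 2 higher genes were Hoxc6 in KO and Hoxb8 in WT. In bulk RNA, fewer cells of a type and less RNA per cell cannot be told apart.

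The mean DSS effect over both genotypes was tested with limma in an additive model with genotype, which has 1 residual degree of freedom, and p-values were adjusted over all genes by Benjamini and Hochberg. No Hox gene passed an adjusted p of 0.05, as no gene on the array did (0%), and the smallest limma adjusted p of a Hox gene was 0.201, for Hoxd11. At an unadjusted p under 0.05 stood 9 of 33 Hox genes, 8 of them lower with DSS and 1, the dim Hoxc9, higher, beside 18.5% of all genes. With a mean-dependent and robust prior, a setting tried as an alternative, 5 Hox genes passed, all lower with DSS, when 4.12% of all genes passed downwards, 2.79% upwards and 6.91% in all. These were Hoxa3, Hoxa6, Hoxd11, Hoxd12 and Hoxd13. In this model the residual of a gene is the difference between its DSS ratios in KO and WT. Unequal ratios therefore enlarge the error, and ratios that happen to be alike give small p-values. With 1 array per group, the error holds no separate measure of the spread between mice or pools.

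The medians of low and high numbers lay close together with DSS. The median log2 ratio of Hox9 to Hox13 was -0.29 in KO and -0.36 in WT, and that of Hox1 to Hox8 was -0.30 in KO and -0.38 in WT. The difference between these medians was 0.02 in KO and 0.02 in WT. Its sign was not stable, being negative in both genotypes after a normexp correction of the background followed by quantile normalization (-0.17 in KO and -0.07 in WT), with the mean of all probes (-0.05 in KO and -0.05 in WT) and over genes well above background on all 4 arrays (-0.10 in KO and -0.03 in WT). Across the 33 measured genes, Spearman's rho of the ratio with the paralogue number was -0.17 in KO and 0.12 in WT, with opposite signs. The 33 genes share 4 arrays and 4 clusters, so rho is a description only. By cluster, HoxD had a median log2 ratio of -0.59 in KO and -0.71 in WT, HoxA of -0.49 in KO and -0.38 in WT, and HoxB of -0.19 in KO and -0.24 in WT. HoxC had 0.67 in KO and 0.09 in WT over 5 genes, of which 3 were dim on some array, and 0.34 in KO and -0.52 in WT over the other 2. By single number, the medians ran from -1.40 (number 12) to 0.27 (number 8) in KO and from -0.67 (number 11) to 0.54 (number 8) in WT, over 1 to 4 genes each.

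**Figure D2:**
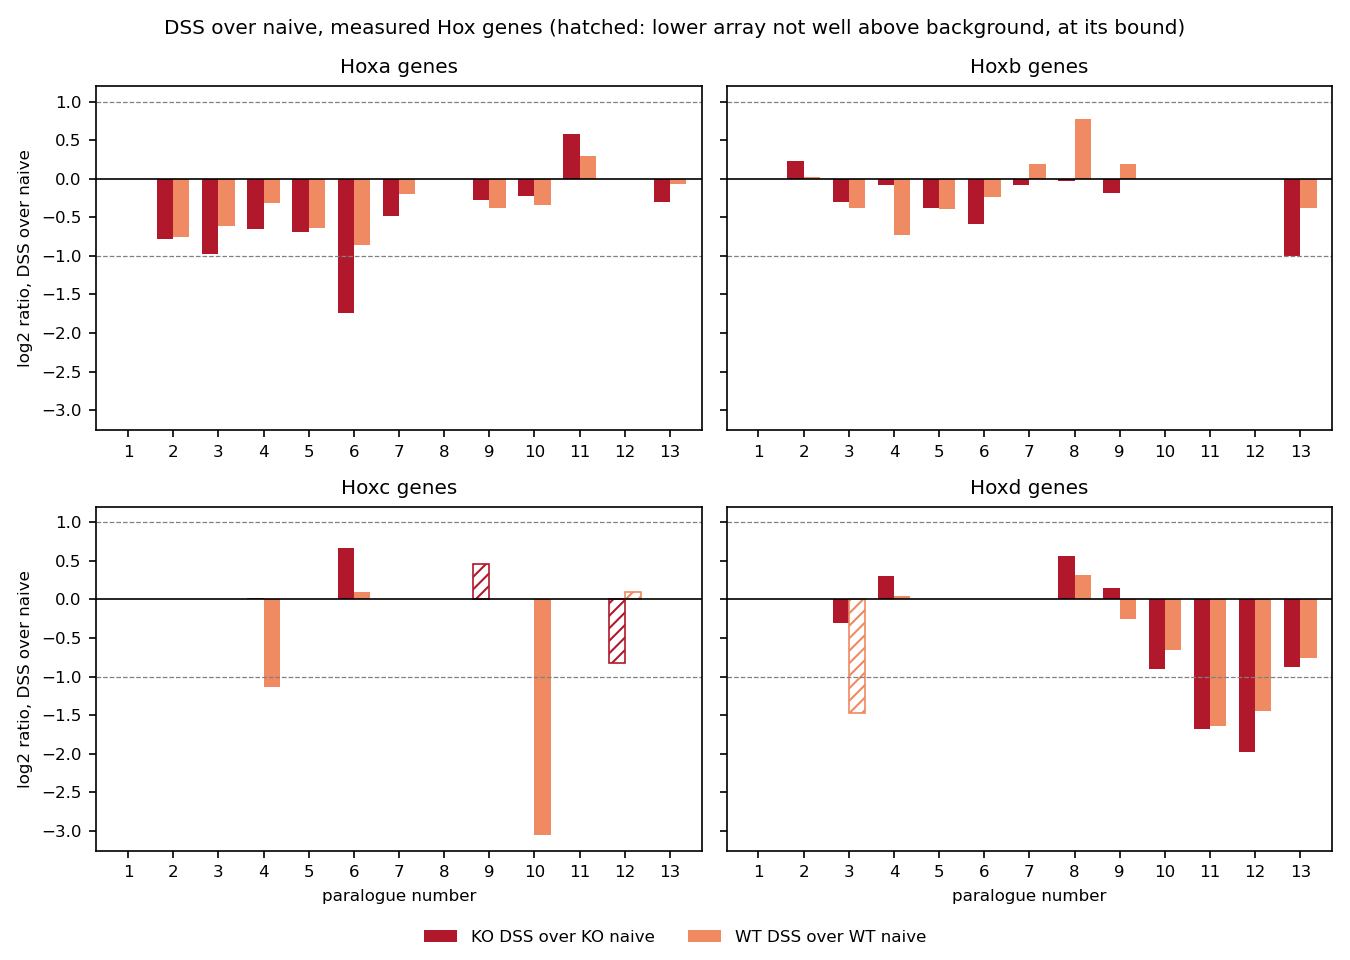
Log2 ratio of DSS over naive for 32 measured Hox genes by paralogue number, 1 panel per cluster, with KO left of WT at each number. Hatched bars have the lower array at its bound, a gene dim on both arrays has no bar, dashed lines mark 2-fold, and Hoxd10 to Hoxd13 lie below 0 in both genotypes with medians of -1.29 in KO and -1.10 in WT.

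The 4 genes at the posterior end of HoxD all stood lower with DSS in both genotypes. Their median log2 ratio was -1.29 in KO and -1.10 in WT, while the other 4 measured HoxD genes, Hoxd3 to Hoxd9, had medians of 0.23 in KO and -0.11 in WT. This boundary was set with the ratios known. From Hoxd9 on, the boundary used elsewhere here, the HoxD median was -0.90 in KO and -0.76 in WT. Hoxd11, which shapes forearm and kidney together with Hoxa11, had relative signals of 0.115 in KO DSS, 0.120 in WT DSS, 0.367 in KO naive and 0.373 in WT naive (probe at chromosome 2, 74525014 to 74525073, mm9). Both DSS pools were low and close to each other, and both naive pools were high and close to each other. The log2 ratio was -1.67 in KO and -1.64 in WT, and the limma adjusted p was 0.201, or 0.00553 with the mean-dependent and robust prior. The second Hoxd11 probe, at 74522136 to 74522195, gave smaller ratios, -0.66 in KO and -0.45 in WT. Its relative signals were 0.0702 in KO DSS, 0.114 in WT DSS, 0.111 in KO naive and 0.156 in WT naive. The probes thus differed in the size of the DSS ratios and not in their direction. They also differed between genotypes. The log2 ratio of KO over WT was -0.70 with DSS and -0.49 in naive mice for the second probe, against -0.06 and -0.02 for the first.

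Hoxd12 had relative signals of 0.0506 in KO DSS, 0.114 in WT DSS, 0.199 in KO naive and 0.309 in WT naive (74515664 to 74515723 on the same chromosome). It was lower with DSS in both genotypes and lower in KO than in WT under both conditions. Its log2 ratios with DSS were -1.97 in KO and -1.44 in WT, with a limma adjusted p of 0.208, or 0.00992 with the other prior. Hoxd13, at 74509248 to 74509307, had 0.921 in KO DSS, 1.20 in WT DSS, 1.69 in KO naive and 2.03 in WT naive. It kept the same order of arrays as Hoxd12, with log2 ratios of -0.88 in KO and -0.76 in WT, a limma adjusted p of 0.219, and 0.0191 with the other prior. Hoxd10, which patterns motor neurons of the hindlimb, had 0.109 in KO DSS, 0.138 in WT DSS, 0.203 in KO naive and 0.218 in WT naive. Both DSS pools were again below both naive pools, at log2 ratios of -0.90 in KO and -0.66 in WT, and the gene passed in neither setting of limma (adjusted p 0.227 and 0.0659).

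The paralogues of these genes did not all follow them. Hoxa11, the partner of Hoxd11, is spotted 10 times on each array. It had relative signals of 0.783 ± 0.0290 in KO DSS, 0.660 ± 0.0218 in WT DSS, 0.526 ± 0.0194 in KO naive and 0.539 ± 0.0262 in WT naive (SD over 10 spots, technical). Both DSS pools were above both naive pools, against Hoxd11, with log2 ratios of 0.57 in KO and 0.29 in WT. Hoxa13, at chromosome 6, 52208980 to 52209039, had 0.338 in KO DSS, 0.345 in WT DSS, 0.416 in KO naive and 0.361 in WT naive. All 4 values of this probe lay close together, with log2 ratios of -0.30 in KO and -0.07 in WT. The second Hoxa13 probe was dimmer, at 0.0938 or less, and gave -0.33 in KO and -0.57 in WT. Its log2 ratio of KO over WT was -0.34 with DSS and -0.575 in naive mice. For the first probe that ratio was -0.03 with DSS and 0.20 in naive mice, so the probes differed in sign in naive mice. Hoxb13, the distal colon and rectum marker, had 16.6 in KO DSS, 25.9 in WT DSS, 33.4 in KO naive and 33.8 in WT naive (chromosome 11, 96057854 to 96057913). The naive pools were alike and both DSS pools lower, most of all KO DSS, at log2 ratios of -1.01 in KO and -0.38 in WT (limma adjusted p 0.282, and 0.112 with the other prior). Hoxc13, which controls hair keratin genes, was not well above background on any array. Hoxc12 was well above background in WT DSS (0.0231) and KO naive (0.0255) and not in KO DSS (0.0144) or WT naive (0.0216), all of them values near the limit of measurement. Of the 3 measured genes of number 13, Hoxb13 and Hoxd13 had ratios below 0 in both genotypes. That of Hoxa13 in WT was 0.08 with median scaling and 0.02 with quantile normalization, so its sign depends on the scaling. Hoxb13 in KO was only just past 2-fold, and lay at -0.94 with median scaling, -0.95 with normexp and -0.94 with quantile normalization.

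The HoxA genes from Hoxa2 to Hoxa6 all stood lower with DSS in both genotypes. Hoxa6 had relative signals of 0.0485 in KO DSS, 0.0576 in WT DSS, 0.162 in KO naive and 0.104 in WT naive. Both DSS pools were below both naive pools, and the naive pools differed, so that the log2 ratio was -1.74 in KO and -0.86 in WT (limma adjusted p 0.229, and 0.0414 with the other prior). Hoxa3, which the thymus and parathyroid glands need to form, had 0.775 in KO DSS, 0.870 in WT DSS, 1.52 in KO naive and 1.34 in WT naive. Its log2 ratios were -0.97 in KO and -0.62 in WT, with a limma adjusted p of 0.234, and 0.0284 with the other prior, and its second probe gave -1.01 in KO and -1.28 in WT. That second probe had low signals, from 0.0251 to 0.0689. It lies at 52149150 to 52149208 on chromosome 6, the first at 52119087 to 52119146, and the Hoxa4 probe between them at 52140287 to 52140346. Which transcripts it reads was not tested. Hoxa2, which patterns the second pharyngeal arch, had 0.0798 in KO DSS, 0.0816 in WT DSS, 0.137 in KO naive and 0.138 in WT naive. Genotypes matched within each condition, and the log2 ratios were -0.78 in KO and -0.76 in WT. Hoxa5, which acts in lung and gut development, had 0.165 in KO DSS, 0.171 in WT DSS, 0.267 in KO naive and 0.266 in WT naive, log2 ratios of -0.69 in KO and -0.64 in WT. Hoxa4 had 0.0403 in KO DSS, 0.0489 in WT DSS, 0.0633 in KO naive and 0.0607 in WT naive, and reached 1.5-fold in KO only by a log2 ratio of -0.65, beside -0.31 in WT. Hoxa7, Hoxa9 and Hoxa10 had log2 ratios between -0.49 and -0.23 in KO and between -0.38 and -0.20 in WT. Across the 11 HoxA genes rho with the number was 0.42 in KO and 0.65 in WT, while across the 7 HoxD genes measured on every array it was -0.75 in KO and -0.82 in WT. With Hoxd3, dim in WT DSS, it was -0.69 in KO and -0.33 in WT over 8 HoxD genes, so the WT value rests on leaving that gene out.

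HoxB and HoxC genes gave less uniform ratios. Hoxb6 had relative signals of 1.88 in KO DSS, 1.92 in WT DSS, 2.82 in KO naive and 2.27 in WT naive, with log2 ratios of -0.59 in KO and -0.24 in WT. Hoxb4, known from blood stem cells, had 0.824 in KO DSS, 0.491 in WT DSS, 0.876 in KO naive and 0.817 in WT naive. WT DSS alone was low, at log2 ratios of -0.09 in KO and -0.74 in WT. Hoxb8, which is used by myeloid progenitors, had 0.314 in KO DSS, 0.464 in WT DSS, 0.321 in KO naive and 0.272 in WT naive. WT DSS alone was high, at log2 ratios of -0.03 in KO and 0.77 in WT. The remaining HoxB genes, Hoxb2, Hoxb3, Hoxb5, Hoxb7 and Hoxb9, lay between -0.38 and 0.23 in KO and between -0.39 and 0.19 in WT.

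Of the HoxC genes, Hoxc4, which helps B cells switch antibody class, had relative signals of 0.0611 in KO DSS, 0.0635 in WT DSS, 0.0604 in KO naive and 0.140 in WT naive. The WT naive pool alone was high, and the log2 ratio was 0.02 in KO and -1.14 in WT. Hoxc10 was well above background in WT naive (0.106) and, barely, in WT DSS (0.0127), and in neither KO pool, with measured signals of 0.0055 in KO DSS and 0.0033 in KO naive. For both genes WT naive is the array that stands apart, and neither has a second probe. Hoxc6 had 0.106 in KO DSS, 0.0735 in WT DSS, 0.0668 in KO naive and 0.0687 in WT naive, high in KO DSS alone, with a log2 ratio of 0.67 in KO and 0.10 in WT. Hoxc9, which patterns motor neurons of the thoracic cord, was well above background in KO DSS only, at 0.0213. Hoxd3 was well above background at 0.0388 in KO DSS, 0.0479 in KO naive and 0.0446 in WT naive and not in WT DSS. There its measured dim signal of 0.0160 was 2.79-fold lower than in WT naive with this background subtraction. With normexp the same log2 ratio was -0.53, below 2-fold. Hoxd4, Hoxd8 and Hoxd9 had log2 ratios between 0.15 and 0.57 in KO and between -0.26 and 0.31 in WT.

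**Figure D3:**
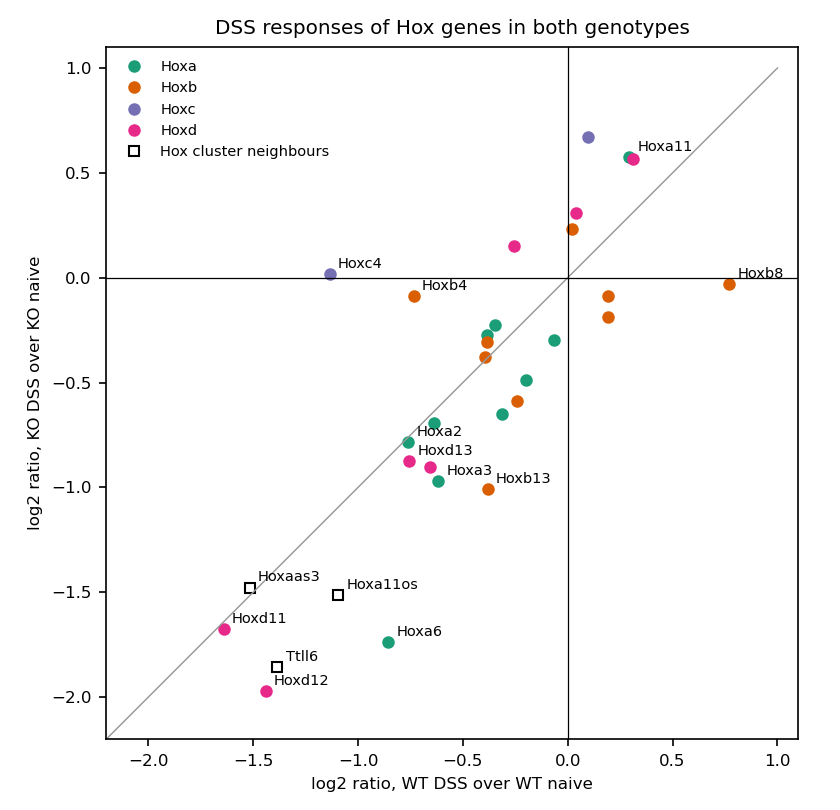
Log2 ratio of WT DSS over WT naive (x axis) against KO DSS over KO naive (y axis) for 28 Hox genes well above background on all 4 arrays, coloured by cluster, with 3 cluster neighbours as squares and the line of equal ratios. Among the Hox genes, Hoxd11 and Hoxd12 lie lowest on the WT axis and Hoxd12 and Hoxa6 on the KO axis. Of the Hox genes, 18 lie below 0 on both axes and 5 above 0 on both.

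The DSS ratios of the genotypes come from separate arrays and could be set side by side. Across the 29 Hox genes well above background on all 4 arrays, Pearson's r was 0.74 and Spearman's rho 0.69, given as a description since genes of 1 array are not independent. Over the 19322 genes measured likewise, r was 0.66 and rho 0.60, so the Hox value is near that of the array as a whole. The ratio was below 0 in both genotypes for 18 of the 29 Hox genes (62.1%) and for 42.2% of all genes. It was past 1.5-fold lower in both for 8 Hox genes (27.6%), where 6.47% of all genes were. No Hox gene was past 1.5-fold higher in both.

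In naive colon the Hox medians of the genotypes lay close together. The median log2 ratio of KO naive over WT naive was 0.06 over 33 Hox genes, against 0.02 over all genes, and 18 genes lay above 0 and 15 below. Hox9 to Hox13 had a median of -0.03 and Hox1 to Hox8 one of 0.06. Past 2-fold lower were 2 genes, Hoxc4 at a log2 ratio of -1.21 and Hoxc10, at least 6.86-fold lower, when 1.1% of all genes passed downwards. No Hox gene was past 2-fold higher, against 1.19% of all genes. Both lower genes are those seen high on the WT naive array alone, and the WT ratios with DSS share that array. Past 1.5-fold were 3 genes lower, with Hoxd12 (log2 -0.64) as the third, against 2.42% of all genes, and 1 higher, Hoxa6 (log2 0.64), against 3.32%.

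With DSS the genotypes differed more among all genes, and the Hox median stayed near 0. The median log2 ratio of KO DSS over WT DSS was -0.03 over 33 Hox genes and -0.09 over all genes, with medians of -0.04 for Hox9 to Hox13 and -0.03 for Hox1 to Hox8. Past 2-fold lower was 1 Hox gene, Hoxd12, at 2.25-fold, beside 2.26% of all genes. Past 2-fold higher was 1, Hoxd3, at 2.42-fold against its measured dim signal in WT DSS, beside 5.23% of all genes. Past 1.5-fold lower were 3, with Hoxb13 (log2 -0.64) and, by a measured dim signal near the limit of measurement, Hoxc12 (1.61-fold), beside 5.76% of all genes. Past 1.5-fold higher were 3, with Hoxb4 (log2 0.75) and Hoxc9 (at least 1.88-fold), beside 10.8%. After quantile normalization with normexp the log2 ratios of Hoxd3 (0.51), Hoxc9 (0.22), Hoxb13 (-0.47) and Hoxc12 (-0.34) were all under 1.5-fold. In limma no Hox gene and no gene on the array (0%) passed for the mean genotype effect, with 1 Hox gene, Hoxd12, at an unadjusted p under 0.05 beside 3.84% of all genes, and with the other prior none of the Hox genes passed either (0.0316% of all genes did). Close medians of low and high numbers can hide a trend by single number. Across the 33 measured genes, rho of KO DSS over WT DSS with the number was -0.44. The ratios thus tended to fall as the number rose, a description only. It was -0.37 over the 29 genes measured on every array. For KO naive over WT naive rho was -0.14 over 33 genes. By cluster, rho with DSS was 0.21 over 11 HoxA genes and -0.78 over 9 HoxB genes. Within HoxD, rho of KO DSS over WT DSS with the number was -0.93 over 7 genes (-0.95 over 8 with Hoxd3), with Hoxd4, Hoxd8 and Hoxd9 above 0 and Hoxd10 to Hoxd13 below. In naive colon it was -0.57 over 7 genes and -0.69 over 8. The KO naive over WT naive and KO DSS over WT DSS ratios come from separate arrays, and their Pearson's r was 0.22 across 29 Hox genes and 0.04 across 19322 genes.

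**Figure D4:**
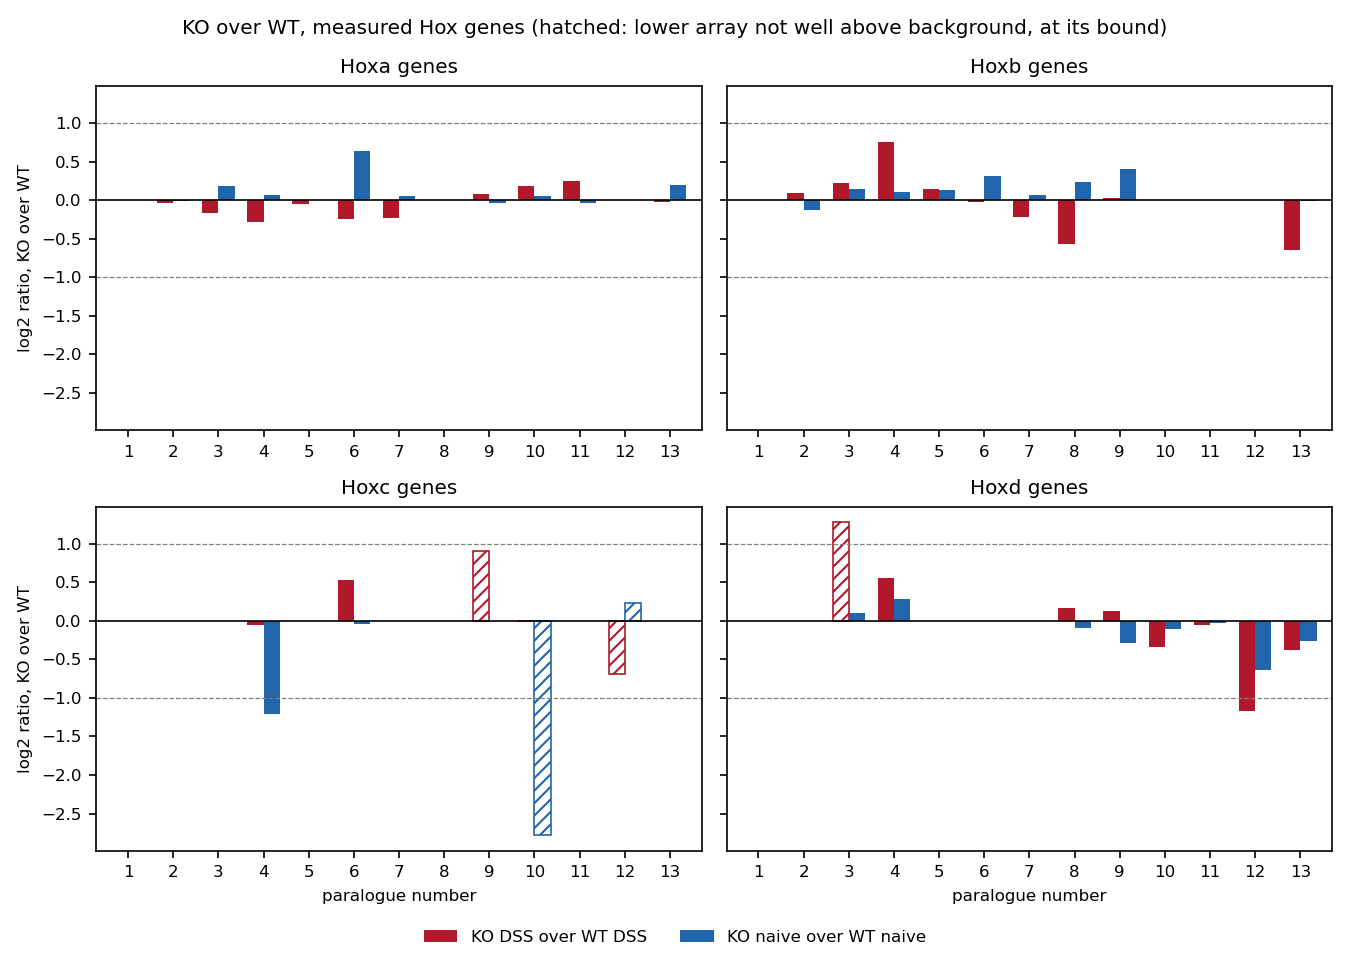
Log2 ratio of KO over WT for 32 measured Hox genes by paralogue number, 1 panel per cluster, with the DSS pair left of the naive pair at each number. Hatched bars have the lower array at its bound and dashed lines mark 2-fold; Hoxd12 lies below 0 in both pairs, at -1.17 with DSS and -0.64 in naive mice.

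Transcripts beside the Hox genes were checked on the same arrays, 12 of 28 listed neighbours and noncoding transcripts being on the array and 11 measured. Of these, 3 were past 2-fold lower with DSS in KO and 3 in WT, where 5.22% and 5.36% of all genes were, and none was past 2-fold higher, where 5.94% of all genes were in KO and 3.49% in WT. Hoxa11os, an RNA of the strand opposite to Hoxa11, had relative signals of 6.78 in KO DSS, 8.31 in WT DSS, 19.4 in KO naive and 17.7 in WT naive. Both DSS pools were far below both naive pools, at log2 ratios of -1.51 in KO and -1.10 in WT, whereas Hoxa11 was higher with DSS. Hoxaas3, a noncoding RNA of the HoxA cluster, had 0.272 in KO DSS, 0.222 in WT DSS, 0.756 in KO naive and 0.636 in WT naive, log2 ratios of -1.48 in KO and -1.52 in WT. Its probe, at 52160572 to 52160631, is on the minus strand like the HoxA gene probes, while that of Hoxa11os is on the plus strand. Whether it also reads RNA of HoxA genes was not tested. Ttll6, a tubulin-modifying enzyme gene next to Hoxb13, had 0.697 in KO DSS, 0.957 in WT DSS, 2.53 in KO naive and 2.50 in WT naive, log2 ratios of -1.86 in KO and -1.38 in WT. The limma adjusted p of these 3 was 0.201 to 0.208, and 0.0112, 0.00485 and 0.00357 with the other prior. Evx1 and Evx2, homeobox genes beyond the posterior ends of HoxA and HoxD, had log2 ratios of 0.16 and -0.17 in KO and of 0.07 and -0.09 in WT. Evx2 lies next to Hoxd13 and did not share its low ratio. Lnpk, Mtx2, Smug1 and Skap2 lay between -0.11 and 0.46 in both genotypes, Skap1 reached 0.71 in KO and 0.49 in WT, and Calcoco1 stood at -0.27 in KO and -0.61 in WT.

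Factors that set the gut's regional identity gave a further view of position. Cdx1, which with Cdx2 specifies intestine and activates Hox genes, had relative signals of 34.9 in KO DSS, 41.6 in WT DSS, 38.7 in KO naive and 37.9 in WT naive. Cdx2 had 8.84 in KO DSS, 10.5 in WT DSS, 8.08 in KO naive and 6.91 in WT naive, and Cdx4 was not well above background on any array. Pdx1, Sox2 and Barx1, factors of foregut, stomach and duodenum, were not well above background on any array. Gata5 was high in WT DSS alone, at 0.507 against 0.235 in KO DSS, 0.246 in KO naive and 0.244 in WT naive. The 11 measured genes of this list had a median log2 ratio of -0.07 in KO and -0.04 in WT with DSS. The 8 measured TALE homeodomain cofactors, which bind DNA with Hox proteins, had medians of -0.17 in KO and -0.27 in WT, and 19 measured regulators of Hox clusters had -0.16 in KO and -0.21 in WT. Of the regulators, Cyp26b1, which degrades retinoic acid, stood at log2 ratios of 0.15 in KO and -1.27 in WT, and Aldh1a2, which makes it, at 1.14 in KO and 0.21 in WT. Meis1 and Pknox2, both cofactors, were at -0.24 and 0.74 in KO and at -0.49 and -0.14 in WT.

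Markers of the tissues that a colon sample can hold moved beside these ratios. Colon epithelium was present in all pools, with 10 of 10 markers on the array well above background on each, and a summed relative signal of 438 in KO DSS, 623 in WT DSS, 692 in KO naive and 578 in WT naive. Its median log2 ratio with DSS was -0.88 in KO and -0.08 in WT, led by the ion carriers Slc26a3 (log2 -2.01 in KO and -1.21 in WT) and Slc9a3 (log2 -1.57 in KO and -0.59 in WT). All 10 lay below 0 in KO, while in WT 5 lay below and 5 above, up to 0.67 for Zg16, a goblet cell lectin picked after its value was seen. Of the distal colon transport genes under aldosterone, 5 measured genes had medians of -1.18 in KO and -0.60 in WT, with summed signals of 5.46 in KO DSS, 8.37 in WT DSS, 13.4 in KO naive and 13.2 in WT naive. Among them Atp12a, a colonic potassium pump subunit, stood at -1.18 in KO and -0.94 in WT, and the sodium channel subunit Scnn1a at -1.53 in KO and -0.60 in WT. Small intestine markers summed to 67.8 in KO DSS, 79.5 in WT DSS, 89.7 in KO naive and 69.2 in WT naive over 13 of 15 genes, with Apoa1 and Apoa4 not above background, and Sis and Rbp2 at log2 ratios of -1.68 and -2.10 in KO and -1.92 and -0.93 in WT. Of the 13, 4 lay above 0 with DSS in KO and 5 in WT. Among them, picked after their values were seen, the Paneth cell lysozyme Lyz1 had 1.89 in KO and 1.03 in WT, and the ileal bile acid carrier Fabp6 had 1.34 in KO and 0.93 in WT. Most of the sum came from Fabp2, with 44.9 in KO DSS, 63.3 in WT DSS, 74.6 in KO naive and 54.9 in WT naive. Stomach markers summed to 0.327 to 0.518 over 7 of 9 genes, and Atp4a and Gkn2 were at background, with Gkn1 at 0.113 or less and Tff2 at 0.155 or less.

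Hox genes of the gut are used largely in its muscle and connective tissue. By its median the smooth muscle list was lower with DSS in both genotypes. The fibroblast list was higher in KO and near 0 in WT. Smooth muscle markers summed to 190 in KO DSS, 308 in WT DSS, 320 in KO naive and 329 in WT naive over 10 of 10 genes, and 10 of 10 lay below 0 with DSS in KO and 8 of 10 in WT, at medians of -0.80 in KO and -0.38 in WT. Myh11, the smooth muscle myosin, had log2 ratios of -1.34 in KO and -1.26 in WT, and Actg2, the enteric actin, -1.07 in KO and -0.12 in WT. Fibroblast markers summed to 150 in KO DSS, 87.3 in WT DSS, 67.4 in KO naive and 83.0 in WT naive over 10 of 10 genes, at medians of 0.95 in KO and -0.02 in WT, led by Dcn and Lum at 1.43 and 1.46 in KO. Enteric neuron and glia markers summed to 2.97 to 3.36 over 8 of 8 genes, with Ret, a receptor of enteric neurons, at 0.12 in KO and -0.36 in WT. Skeletal muscle markers, of the anal canal's outer sphincter or the body wall, summed to 2.21 in KO DSS, 3.45 in WT DSS, 5.57 in KO naive and 4.59 in WT naive over 7 of 10 genes. Their median log2 ratio was -1.76 in KO and -0.69 in WT, with Myh1 at -4.46 in KO and -1.12 in WT, and Tnnt3 at -2.35 in KO and -0.15 in WT, and Myod1, Myh4 and Mylpf were at background. Squamous epithelium markers, which line the anal canal, summed to 7.89 in KO DSS, 7.64 in WT DSS, 6.74 in KO naive and 6.02 in WT naive over 10 of 12 genes, and Ivl and Dsg1a were at background. Krt1 and Lor were highest in WT DSS, at 0.197 and 0.858, against 0.0308 and 0.159 in KO DSS. The list was split, with 5 of 10 above 0 with DSS in KO and 8 of 10 in WT, and the basal keratins Krt5 and Krt14, picked after their values were seen, were highest in KO DSS, at 2.25 and 1.00 against 0.798 and 0.577 in WT DSS. General epithelium markers summed to 418 in KO DSS, 526 in WT DSS, 515 in KO naive and 435 in WT naive over 8 of 8 genes, with Cldn7 and Krt18 at -0.37 and -0.42 in KO and 0.42 and 0.29 in WT. The part of these lists in the Hox ratios was not tested.

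Most markers of pancreas, fat and leukocytes stood higher in the DSS pools. Pancreatic acinar markers had medians of 3.45 in KO and 6.02 in WT with DSS and summed to 8.55 in KO DSS, 30.1 in WT DSS, 7.04 in KO naive and 7.91 in WT naive, with Ctrb1 and Cel highest in WT DSS at 4.57 and 0.765. Of the 8 markers, 7 lay above 0 in each genotype, and Cela1 lay below, at -1.53 in KO and -0.27 in WT. Most of both naive sums came from Cela1, with 2.27 in KO DSS, 6.20 in WT DSS, 6.56 in KO naive and 7.47 in WT naive. All 8 were well above background on each DSS array and 4 on each naive array. Adipocyte markers had medians of 2.55 in KO and 3.39 in WT, and summed to 23.3 in KO DSS, 23.0 in WT DSS, 4.16 in KO naive and 3.40 in WT naive, with Adipoq and Retn at 2.95 and 2.55 in KO. Leukocyte markers had medians of 0.85 in KO and 0.17 in WT and summed to 50.3 in KO DSS, 22.1 in WT DSS, 16.6 in KO naive and 15.1 in WT naive, with S100a9 and Cd68 at 6.47 and 2.03 in KO. The part of these tissues in the Hox ratios was not tested.

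**Figure D5:**
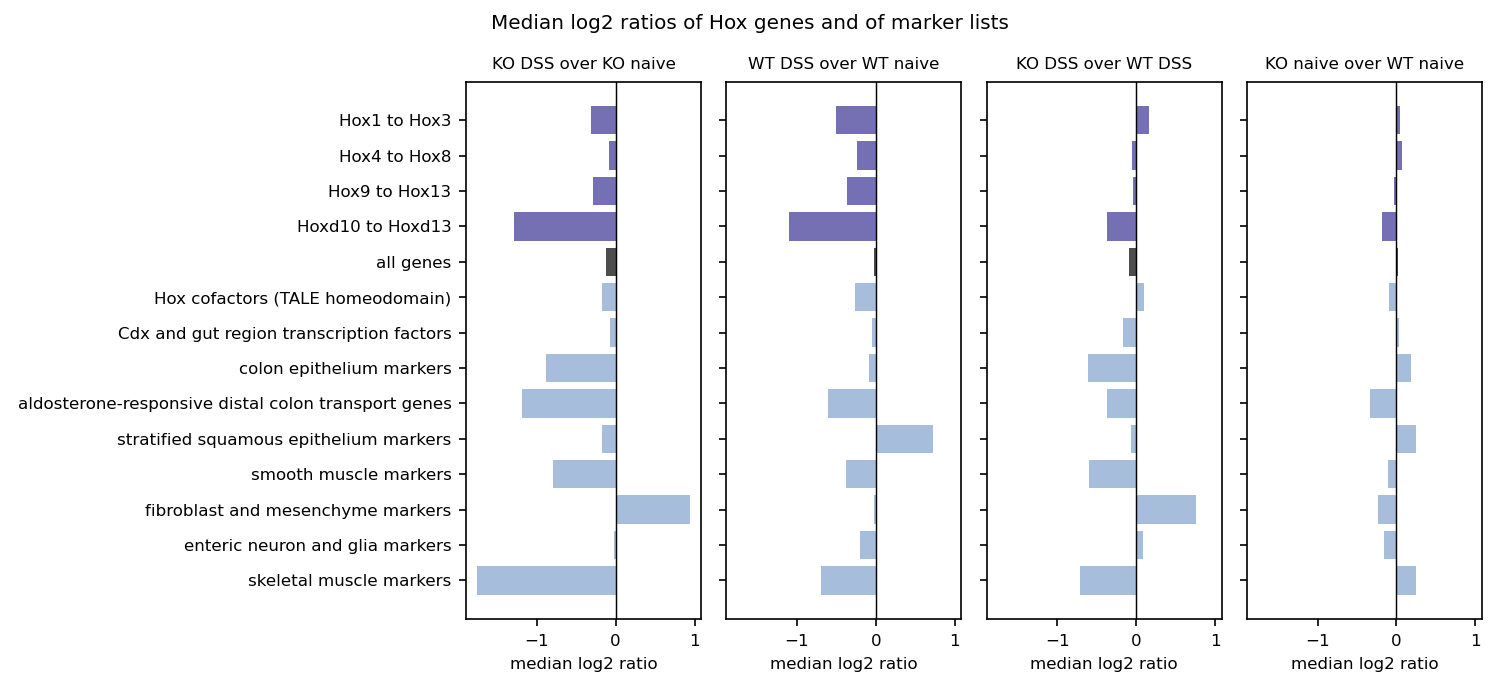
Median log2 ratio of Hox groups (purple), all genes (dark grey) and marker lists (blue) in the 4 comparisons. Hoxd10 to Hoxd13 lie at -1.29 in KO and -1.10 in WT with DSS, while all genes lie at -0.13 in KO and -0.02 in WT, and Hox9 to Hox13 as a whole at -0.29 in KO and -0.36 in WT.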

How the data were processed

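RNA of 4 groups was hybridised to single-colour Agilent arrays, 1 per group, all on 1 slide with 1 scan per the file headers; 200 ng of pooled RNA was labelled per the labels' protocols. The authors' deposited scanner files give an intensity per spot after background subtraction (the processed signal), made with Agilent Feature Extraction 11.5.1.1 per the submitters' processing notes. Their deposited series table is that intensity divided by each header's 75th percentile, as checked on the values. The depth of an array is set by signal over background, and the number of arrays limits the precision. Control spots (1377 per array) and outlier spots (129 to 136) were left out. No spot was saturated. The log2 signal was set relative to each array's 75th percentile, repeat spots were averaged, and each gene was represented by its brightest probe among those well above background on at least 1 array. Names came from accessions and symbols in a RefSeq table (27508 probes through an accession, 3544 through the symbol, 404 through an older one, and 7973 kept their name). Probe coordinates are mm9, per the file headers, which name no exon or UTR. A fold against a dim array used a bound, that array's lowest well-measured signal or the dim signal itself, whichever was higher. It is written as at least where the lowest well-measured signal was used and the fold exceeds 1. Medians used the measured dim values. Effects over both levels of the other factor were fitted with limma 3.58.1 in R 4.3.3, checked on simulated data; summaries used pandas 2.3.3, numpy 2.4.6 and scipy 1.17.1. Alternatives were median scaling, quantile normalization, normexp (offset 50) with quantile normalization, the series table, all probes, a filter on all 4 arrays, and eBayes with trend and robust. Named Hox genes were those past 1.5-fold in at least 1 of 4 comparisons and all of numbers 12 and 13; of the 17 gene lists, those named were Cdx genes, cluster neighbours and the 2 genes of each list with the largest ratio. Some members and list genes that this rule names are not reported here, though they count in medians and totals. The Hox genes and the lists were chosen with earlier results of these data known.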

Additional observations from a re-analysis of the deposited data

Results flagged for a closer look

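Some Hox genes had ratios of opposite sign in the genotypes or conditions, and none of these differences was tested. The DSS ratio of Hoxb9 was -0.19 in KO and 0.19 in WT, a difference of -0.38 on the log2 scale. That of Hoxd9 was 0.15 in KO and -0.26 in WT, a difference of 0.41, and its KO over WT ratio was 0.13 with DSS and -0.28 in naive mice, the same difference of 0.41. The KO over WT ratio of Hoxa3 was -0.17 with DSS and 0.19 in naive mice, a difference of -0.35, and with the mean of all probes its ratio with DSS was 0.14. That of Hoxa6 was -0.25 with DSS and 0.64 in naive mice, a difference of -0.88. That of Hoxb8 was -0.56 with DSS and 0.24 in naive mice, a difference of -0.80.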

How the results depend on the processing

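No Hox ratio past 2-fold changed sign. Of 464 values of single named genes, 10 had the opposite sign to the main value, none of them with a main log2 ratio beyond 0.20 in size; they belong to Hoxa3, Hoxa5, Hoxa13, Hoxb6 and Hoxb8. Of summary values, 90 of 110 under the alternatives stayed within the spread of repeat spots or the tolerance for counts. The median Hox ratio of WT DSS over WT naive (-0.38) was -0.24 with median scaling, -0.27 with normexp and -0.28 with quantile normalization. That of KO DSS over WT DSS (-0.03) was -0.12 with median scaling. The difference of high and low numbers with DSS was -0.0743 in WT (0.02 in the main setting) with normexp, and in KO (0.02) -0.17 with normexp, -0.13 with quantile normalization and -0.0995 with the filter on all 4 arrays. In KO DSS over WT DSS (-0.02) it was -0.24 with the mean of all probes and -0.12 with quantile normalization. Hox genes past 2-fold numbered 3 in place of 5 for WT DSS over WT naive with normexp, with the filter on all 4 arrays and without the HoxC cluster, a setting chosen after seeing the data. They numbered 1, 1 and 0 in place of 2 for KO naive over WT naive, and 0 with normexp and 1 with the filter in place of 2 for KO DSS over WT DSS. Limma called 3 Hox genes for DSS with that filter (Hoxa6, Hoxd11 and Hoxd12, where 5.62% of all genes were called) and 5 with the trended and robust prior, in place of 0. The cause of these shifts was not tested. Of values of single genes, 346 stayed and 118 moved.

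Pairing by replicate was not possible because each group holds 1 array and the labels give no replicate number. The additive limma model compares DSS with naive within genotype. Leaving out an array would empty its group. Calls of Hoxd3, Hoxc9, Hoxc10 and Hoxc12 against an array where they were not well above background rest on the bound. For Hoxd3 and Hoxc12 that bound is the dim signal itself.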
